A study of Mus musculus with 12 samples.

Results

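A set of 127 genes on mouse chromosome 2 surrounds the HoxD cluster, the row of Hoxd genes that pattern the trunk, limbs and genitalia. They were chosen by position alone, as the genes that lie wholly between 71690000 and 79000000 on chromosome 2 (mm39), and they are 127 of the 56495 genes in the deposited table. The 14 genes of that window named Hoxd, Evx2, Mtx2, Lnpk or Ttn were left out. On the reference chromosome 54 of the genes lie on the centromeric side of the Hoxd genes, 66 on the telomeric side and 7 among the Hoxd genes. RNA was sequenced from mouse urogenital sinus at embryonic stage E18.5, the tissue around the proximal urethra, taken without the bladder and, in females, together with the vagina. The 12 libraries form 4 groups of 3: wild type males, wild type females, and mutant males and mutant females, whose genotype is written Inv(Itga6-nsi)d11lac. The genotype name gives an inversion with an end at Itga6, which lies just outside the window on its centromeric side (71617284 to 71687115), with its other end at nsi, and also holds d11lac. The labels place neither nsi nor d11lac, do not say whether the alleles are on 1 or both copies of the chromosome, and give no strain and no number of animals, so sides are those of the reference chromosome and which of the genes lie inside the inverted stretch is not known here. Nor do they tie libraries to separate embryos, and p-values therefore measure only the spread among these libraries, which may be technical.

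The Hoxd genes stand between a pair of long stretches that hold few protein-coding genes but many enhancers, the regulatory DNA that switches the cluster on in digits and genitalia from the centromeric side and in the proximal limb and other tissues from the telomeric side. Beyond these stretches the chromosome carries widely used genes, among them transcription factors (Sp3, Atf2, Nfe2l2), an ATP synthase subunit (Atp5g3), RNA-binding proteins (Hnrnpa3, Rbm45, Prkra) and cilium genes (Ttc30a1, Ttc30b). An inversion turns a stretch of chromosome end to end, which changes the neighbours and distances of genes near its ends and leaves those deep inside or outside next to the genes they had before.

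Values are FPKM (fragments normalised to transcript length and to the mapped total), divided by a factor per library that sets the median gene equal, and called scaled FPKM. FPKM are per length, so levels can be compared between genes, but read counts and hence counting errors are not known. Against the deepest library, the others of wild type had a relative depth of 0.812 or more and all mutant ones 0.582 to 0.717, so depth and genotype cannot be told apart. Only 3 libraries (wild type male 1, mutant males 1 and 3) listed Rn7sk, a small nuclear RNA, above 0, and there it made up 12.2% to 14.9% of all FPKM. Summed skeletal muscle markers lay between 965 and 1326 for wild type males, 574 and 931 for mutant males, 603 and 809 for wild type females and 581 and 704 for mutant females. Summed markers of basal epithelium lay, in the same order, between 44.0 and 77.5, 92.5 and 135, 95.5 and 107, and 174 and 418. At the threshold defined below, 7 of the 14 skeletal muscle markers fell in males and 0 in females, against 11.6% and 15.9% of all tested genes. Of the 4 basal markers 1 rose in males and 4 in females, against 8.64% and 12.1%. The difference of the genotype effects between the sexes passed the test for 0% of all tested genes. In both lists 0 markers were at 0 in every library. The 5 neural markers summed to 22.4 in mutant female 3 and to 171 to 359 in the others, and the 6 blood markers to 700 and 960.3 in wild type males 1 and 2 and to 2745 to 12613 in the others. The 4 endothelial markers summed to 42.9 in mutant female 1 and to 71.4 to 91.0 in the others. The part of these cell types in the values below was not tested, and in bulk tissue fewer cells of a type and less RNA per cell cannot be told apart.

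Most of the 127 genes were listed at low values or at 0, which was not read as silence. A total of 34 passed the filter for testing, at least 1 FPKM in at least 3 libraries, while 93 did not and 54 were listed at 0 in every library, where an exact 0 can also be a failed estimate. Of the 43 genes with a symbol 32 passed, of the 8 pseudogenes 1 (Rps6-ps4) and of the 76 unnamed gene models 1. The centromeric side gave 16 tested genes and the telomeric side 18, and 0 of the 7 genes among the Hoxd genes passed. The symbols that did not pass were Rapgef4os1, Rapgef4os2, Rapgef4os3, Sp9, Chn1os1 and Chn1os3 on the centromeric side, Haglr and Mir10b among the Hoxd genes, and Ttc30a2, Cyct and Pjvk on the telomeric side. A gene of the group that is high in only 1 genotype can pass by that genotype alone, so counts below describe the 34 tested genes and not all 127.

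The genes of the set in the stretches next to the cluster gave little signal. Lnpk and Evx2 on the centromeric side and Mtx2 on the telomeric side also lie there, but the rule left them out. Their group means ranged over 5.90 to 8.15, 1.55 to 2.98 and 7.69 to 11.3 scaled FPKM. Between Atp5g3 and the Hoxd genes lie 757 kb with 9 of the genes, 7 of them listed at 0 in every library, 0 passing the filter and a highest FPKM of 0.154 (Mrpl23-ps1). Between the Hoxd genes and Hnrnpa3 lie 894 kb with 15 of the genes, of which 5 were listed at 0 in every library and 1, Rps6-ps4, passed. Rps6-ps4, a pseudogene of a ribosomal protein gene whose reads may come from other copies, had mean scaled FPKM of 1.27 ± 0.876 and 1.47 ± 0.0943 in male wild types and mutants and 1.53 ± 0.400 and 1.56 ± 0.229 in female ones (SD, n = 3 libraries), with overlap in both sexes and no call. The highest of the other genes of the set there reached 0.963 FPKM, the unnamed model Gm13652, which was named after its values were seen. Its means were 0.536 ± 0.203 scaled FPKM in wild type males, 0.794 ± 0.103 in mutant males, 0.0871 ± 0.0133 in wild type females and 0.0585 ± 0.0196 in mutant females (SD, n = 3 libraries). Haglr, a long non-coding RNA antisense to the Hoxd genes and the highest of all that did not pass, was at 0.388, 0.657 and 0.161 in wild type males, 0.959, 0.697 and 0.389 in mutant males, 0.245, 0.0626 and 0.207 in wild type females and 0.190, 0.411 and 0.568 in mutant females. In neither sex did its genotypes separate without overlap. Neither gene was tested, being under the filter.

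The mutant effect was first described by side. Each tested gene was compared between genotypes in each sex and with the sexes combined by limma, a linear model fitted to log2(scaled FPKM + 0.5) over all 13904 tested genes, and is said to be called, to rise or to fall at a Benjamini-Hochberg adjusted p under 0.05. Fold changes on this scale understate low genes. In males 11 of the 34 tested genes fell and 2 rose, against 11.6% lower and 8.64% higher (20.3% in all) among the 13904. In females 13 fell and 1 rose, against 15.9% lower and 12.1% higher (28% in all). With the sexes combined (the mean of both effects) 16 fell and 1 rose, against 21.6% lower and 18.9% higher (40.6% in all). The lower calls were thus 32.4%, 38.2% and 47.1% of the tested genes, above the share among all genes in each of the 3 comparisons, and no test was made of that share. On FPKM as deposited, where the median of all genes lies at -0.14 in males and -0.08 in females, 6 fell and 0 rose in each sex, against 8.84% lower and 0.87% higher of all genes in males (9.71% in all) and 10.3% and 1.66% in females (12% in all).

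Both sides had this excess of lower calls. On the centromeric side 6 of 16 genes fell in males, 5 in females and 7 with the sexes combined, and 0 rose. On the telomeric side 5 of 18 fell and 2 rose in males, 8 fell and 1 rose in females, and 9 fell and 1 rose with the sexes combined. The median log2 fold change was -0.20 in males, -0.21 in females and -0.27 with the sexes combined on the centromeric side and -0.12, -0.20 and -0.14 on the telomeric side, where the median of all tested genes was 0.00 with the sexes combined. In single libraries, all 3 mutant libraries lay below all 3 wild type libraries of the same sex for 14 genes in males, 17 in females and 14 in each of the sexes, 7 on either side. Among all tested genes such separation with the mutant lower held for 22.4% in males, 22.2% in females and 14% in each sex. With the mutant higher it held for 5 of the 34 genes in males, 1 in females and 1 in each sex (Hnrnpa3), against 21.1%, 20.4% and 10.6% of all genes.

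**Figure D1:**
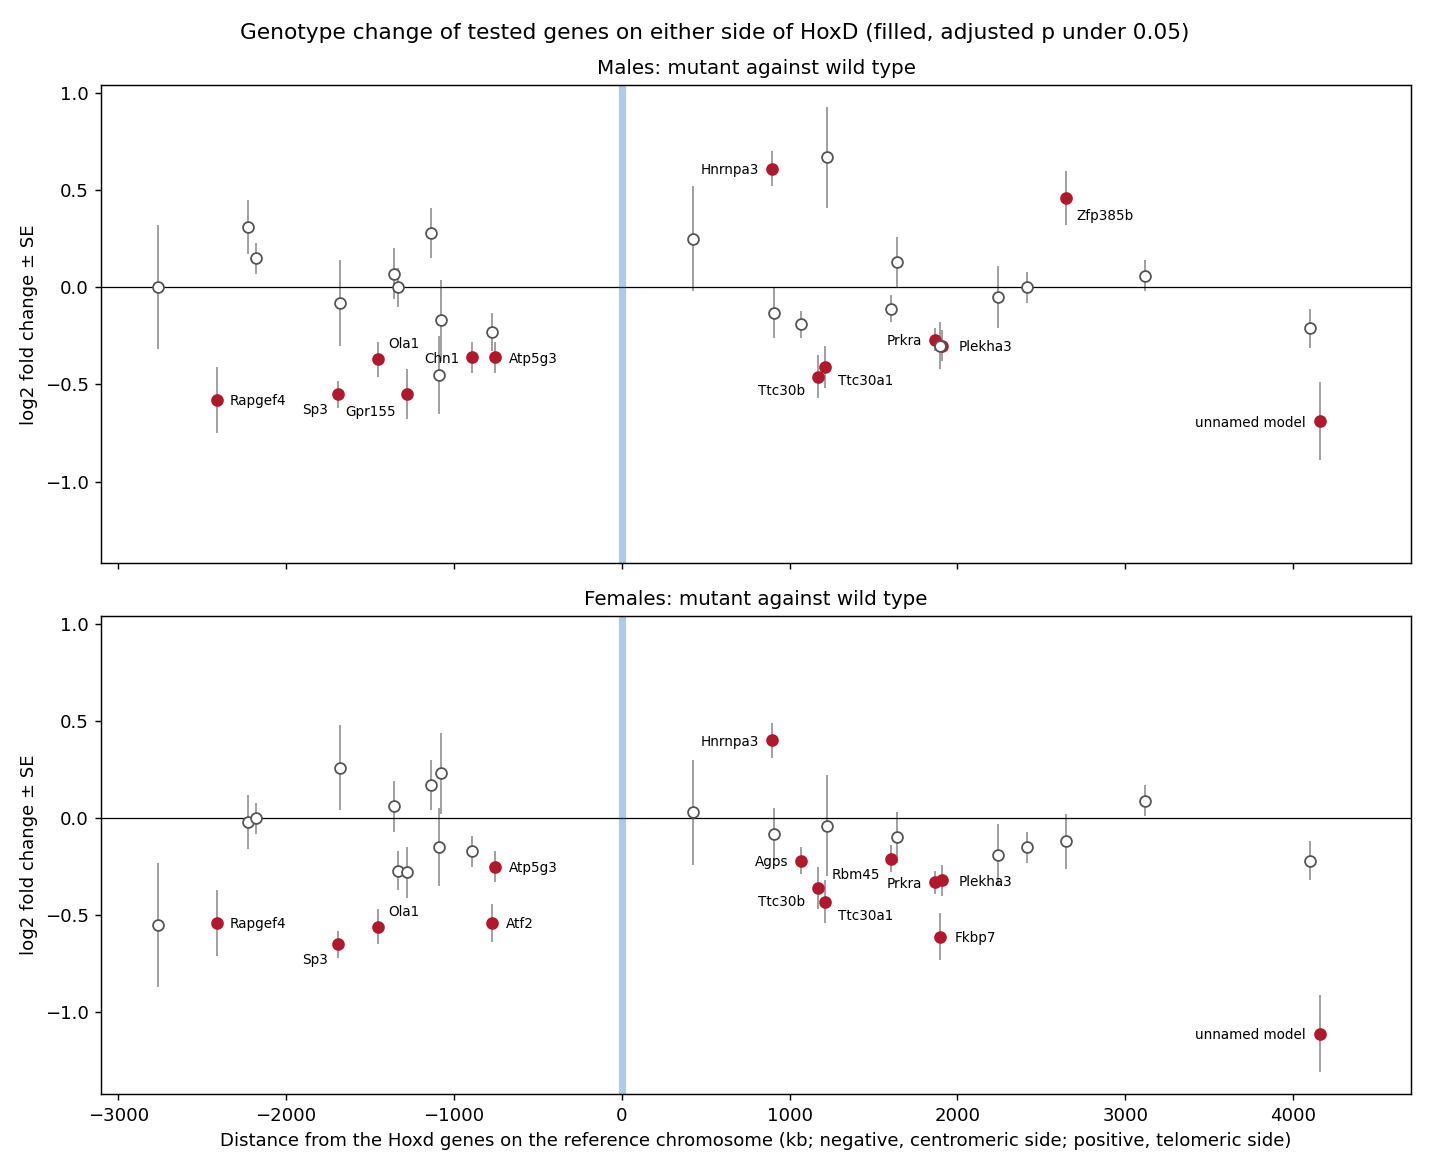
Log2 fold change (± SE) of mutant against wild type for the 34 tested genes, against distance in kb from the Hoxd genes, in males (top) and females (bottom). Filled points have a limma adjusted p under 0.05 and are named. Most filled points lie below 0 on both sides, and Hnrnpa3 lies above 0 in both sexes.

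The genes were also set beside the rest of the chromosome. In the stretch of the same width (7.31 Mb) directly before the window 35 genes were tested, and 8 fell in males, 16 in females and 17 with the sexes combined, with medians of -0.19, -0.34 and -0.26. In the stretch directly after it 33 genes were tested, and 4 fell in males, 10 in females and 12 with the sexes combined, with medians of -0.13, -0.23 and -0.22. The remaining 991 tested genes of chromosome 2 had a median of 0.02 in each comparison, with 10.8%, 15.3% and 21.5% lower. The medians on the sides of HoxD and in both neighbouring stretches thus all lay below that of the rest of the chromosome, and nothing particular to the flanks of HoxD was read from them.

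**Figure D2:**
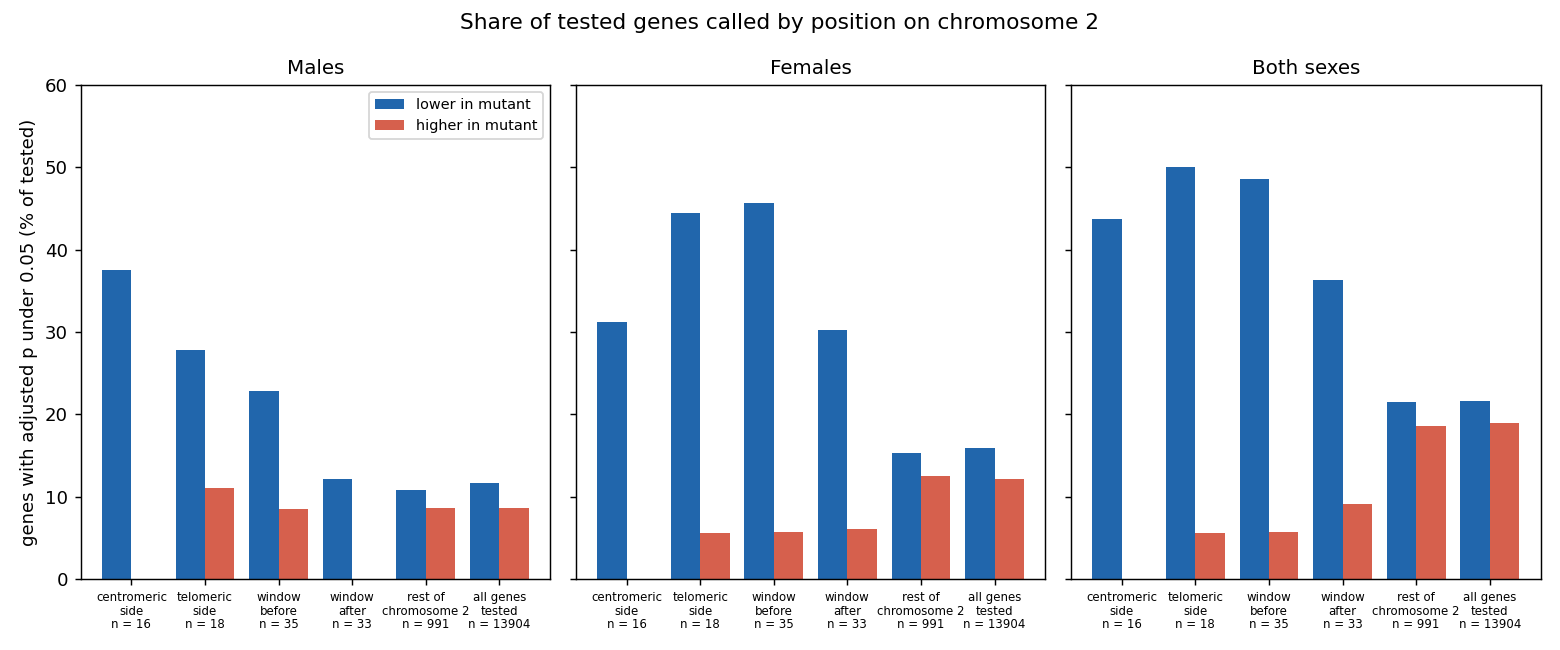
Percent of tested genes with a limma adjusted p under 0.05, lower (blue) or higher (red) in the mutant, for the centromeric and telomeric genes, the equal stretches before and after the window, the rest of chromosome 2 and all tested genes. The third panel combines the sexes, and lower shares are above that of all genes on both sides of HoxD and in both neighbouring stretches.

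Within a side the changes did not order simply by distance. On the centromeric side the correlation of log2 fold change with distance from the Hoxd genes across the 16 genes was 0.23 in males, -0.20 in females and 0.01 with the sexes combined (Pearson), as a description. On the telomeric side it was -0.32, -0.46 and -0.41 across 18 genes, with the higher Hnrnpa3 near the cluster and the lowest value at the far end. Spearman correlations were 0.15, -0.22 and 0.03 on the centromeric side and -0.20, -0.31 and -0.25 on the telomeric side. Within 1 Mb of the Hoxd genes all 3 tested centromeric genes of the set (Atp5g3, Atf2 and Chn1) fell with the sexes combined. On the telomeric side 0 of 3 did (the pseudogene Rps6-ps4, Hnrnpa3 and Nfe2l2). These counts leave out genes excluded by the rule that also lie within that distance. Of those, with the sexes combined, Mtx2 on the telomeric side fell (values below), and on the centromeric side Lnpk fell and Evx2 rose. From 1 to 2 Mb on the telomeric side 7 of 9 genes fell with the sexes combined. They were Agps, Ttc30b, Ttc30a1, Rbm45, Prkra, Fkbp7 and Plekha3, while Pde11a and Osbpl6 were not called. Of all tested genes 21.6% fell in that comparison. After the GC and length correction given below, 1 of these 9 genes fell with the sexes combined. Within 1 Mb 2 of the 3 centromeric and 0 of the 3 telomeric genes then fell, against 8.55% of all genes.

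As marks of position, 3 genes outside the set were read in the same fit. Itga6, the integrin subunit gene named in the inversion, was at 23.4 ± 0.615 scaled FPKM in wild type and 19.0 ± 0.602 in mutant males and at 27.1 ± 1.42 and 24.0 ± 5.25 in females (SD, n = 3 libraries), with -0.24 with the sexes combined (SE 0.09, limma adjusted p = 0.051). Hoxd13, the first Hoxd gene on the centromeric side, fell by 1.83 with the sexes combined (SE 0.14, limma adjusted p = 3.69e-05). Mtx2, a mitochondrial import gene just beyond the last Hoxd gene, fell by 0.45 (SE 0.06, limma adjusted p = 2.02e-04). The falls of the tested flanking genes with a symbol, 0.16 to 0.60 with the sexes combined, were thus smaller than that of Hoxd13.

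Among the centromeric genes Sp3, Rapgef4 and Ola1 fell most with the sexes combined. Sp3 (ENSMUSG00000027109, 72766771 to 72810790) encodes a zinc finger transcription factor that binds GC-rich promoter elements and can activate or repress. It was at 32.1, 30.6 and 33.2 scaled FPKM in the 3 wild type male libraries and at 19.7, 22.3 and 22.9 in the 3 mutant male libraries. Sp3 was at 33.1, 33.5 and 36.0 in wild type females and 20.3, 22.3 and 22.4 in mutant females. Every mutant library, of either sex, lay well below every wild type library. The log2 fold change was -0.55 in males (limma adjusted p = 0.00224, SE 0.07), -0.65 in females (limma adjusted p = 5.48e-04, SE 0.07) and -0.60 with the sexes combined (limma adjusted p = 4.28e-05, SE 0.05). Its antisense RNA Sp3os, which overlaps the Sp3 locus, was at 2.69 ± 0.245 and 2.54 ± 0.452 in wild type and mutant males and 2.51 ± 0.166 and 3.26 ± 1.25 in females (SD, n = 3 libraries), and was not called (limma adjusted p from 0.407 to 0.841). The libraries were strand-specific per the labels, but the strand setting of the counting is not given in the sources used here, so reads of Sp3 and Sp3os may not be fully told apart.

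Ola1 (ENSMUSG00000027108, 72923145 to 73044791), the gene of a conserved ATPase of the Obg family, lies next on the chromosome. Its values were 26.3, 25.8 and 31.0 scaled FPKM in wild type males against 19.8, 21.8 and 22.2 in mutant males, and 28.6, 27.2 and 31.2 in wild type females against 19.3, 20.3 and 18.7 in mutant females. The genotypes did not overlap in either sex. Ola1 fell by 0.37 in males (limma adjusted p = 0.0132, SE 0.09), by 0.56 in females (limma adjusted p = 0.00126, SE 0.09) and by 0.47 with the sexes combined (limma adjusted p = 2.21e-04, SE 0.06). The call of Ola1 in males was lost when mutant male 1 was left out (limma adjusted p up to 0.0624).

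Promoter sequence was read for the genes held by a RefSeq table of promoters, 29 of the 34, as the 300 bases from 250 before to 50 after a gene's start (build GRCm38.p6, whose coordinates differ from those of mm39 used above). The promoters of the flanking genes were GC-rich, with a median of 66.3% GC and 24 CpG pairs, against 61.3% and 21 over the 10571 promoters matched to tested genes and 52.7% and 7 over all 27025 promoters, which include genes not expressed here. The GC box GGGCGG, the element that Sp factors bind, stood on either strand in 21 of 29 (72.4%), against 65.6% for tested genes and 35.9% of all promoters. The cAMP response element TGACGTCA, bound by ATF and CREB factors, stood in 0 of 29, against 3.27% and 1.88%. The core of the antioxidant response element, TGACNNNGC, which NRF2 binds, stood in 6 of 29 (20.7%), against 14.6% and 12.5%. A match describes the letters of the window and shows no binding.

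The promoters of the neighbours Sp3 and Ola1 are shown because both genes fell, in the direction of transcription and with GC boxes and antioxidant cores of either strand in capitals. Sp3 (chr2:72980397-72980696, minus strand) holds 2 GC boxes and 1 core. Ola1 (chr2:73214398-73214697, minus strand) holds 3 GC boxes.
Sp3: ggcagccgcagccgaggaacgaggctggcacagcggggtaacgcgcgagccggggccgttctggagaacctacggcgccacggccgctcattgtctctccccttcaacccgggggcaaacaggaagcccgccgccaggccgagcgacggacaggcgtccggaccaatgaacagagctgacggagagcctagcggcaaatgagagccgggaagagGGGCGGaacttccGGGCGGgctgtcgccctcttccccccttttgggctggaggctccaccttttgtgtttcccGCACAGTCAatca
Ola1: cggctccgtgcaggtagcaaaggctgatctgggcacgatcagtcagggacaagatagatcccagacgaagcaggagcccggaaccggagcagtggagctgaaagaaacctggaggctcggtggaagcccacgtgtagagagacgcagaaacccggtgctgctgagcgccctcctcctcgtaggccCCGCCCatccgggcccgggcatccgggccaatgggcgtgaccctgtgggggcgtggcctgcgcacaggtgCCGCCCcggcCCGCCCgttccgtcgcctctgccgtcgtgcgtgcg

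Rapgef4 (ENSMUSG00000049044, 71811584 to 72087818), which encodes the cAMP-gated exchange factor EPAC2 for Rap proteins, is among the 3 tested genes at the low end of the window. It was at 1.92, 2.08 and 2.42 in wild type and 1.37, 1.03 and 1.40 in mutant males, and at 1.74, 1.79 and 1.79 in wild type and 1.28, 1.27 and 0.703 in mutant females, in scaled FPKM. All mutant values were below all wild type values of the sex, and mutant female 3 was lowest. Rapgef4 fell by 0.58 in males (limma adjusted p = 0.0302, SE 0.17), 0.54 in females (limma adjusted p = 0.0312, SE 0.17) and 0.56 with the sexes combined (limma adjusted p = 0.00308, SE 0.12). The call of Rapgef4 in males was lost when wild type male 1, wild type male 2, wild type male 3, mutant male 1 or mutant male 2 was left out (limma adjusted p up to 0.110). The call of Rapgef4 in females was lost when wild type female 1, wild type female 2, wild type female 3 or mutant female 3 was left out (limma adjusted p up to 0.0865). Its neighbour Pdk1 (ENSMUSG00000006494, 71703568 to 71734202), an inhibitory kinase of pyruvate dehydrogenase and the tested gene nearest to the low end, varied widely between libraries. Pdk1 was at 8.70, 7.90 and 14.9 in wild type males, 10.6, 10.7 and 9.01 in mutant males, 14.0, 14.0 and 14.0 in wild type females and 4.93, 11.2 and 14.8 in mutant females. The groups overlapped, with -0.00 in males and -0.55 in females (SE 0.32, limma adjusted p = 0.996 and 0.219).

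Next at that end, Map3k20 (ENSMUSG00000004085, 72115981 to 72272954), encodes the stress kinase ZAK, which senses stalled ribosomes. It was at 13.8, 14.9 and 15.0 in wild type and 17.1, 20.3 and 17.3 in mutant males and at 13.4, 13.3 and 12.2 in wild type and 10.3, 12.3 and 16.4 in mutant females. The male genotypes did not overlap, with the mutants higher, while the female genotypes did. Neither difference passed the test, at 0.31 in males and -0.02 in females (limma adjusted p = 0.127 and 0.919). Of the others between Map3k20 and Sp3, Cdca7, a Myc-responsive gene linked to DNA methylation at centromeres, stood at 0.15 and -0.00 (limma adjusted p = 0.185 and 0.991).

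The 3 tested centromeric genes nearest to HoxD are Atp5g3, Atf2 and Chn1. Atp5g3 (ENSMUSG00000018770, 73738791 to 73741670), 757 kb from the Hoxd genes, encodes the membrane-ring subunit c of mitochondrial ATP synthase and had the highest level of the 34 genes. Scaled FPKM were 154, 158 and 166 in wild type males, 116, 126 and 129 in mutant males, 150.5, 152 and 152 in wild type females and 137, 131 and 116 in mutant females. Again the mutant libraries were all below the wild type libraries, with the tightest group in wild type females. Atp5g3 fell by 0.36 in males (limma adjusted p = 0.00932, SE 0.08), 0.25 in females (limma adjusted p = 0.0339, SE 0.08) and 0.30 with the sexes combined (limma adjusted p = 0.00127, SE 0.05). The call of Atp5g3 in females was lost when wild type female 1, wild type female 2, wild type female 3 or mutant female 3 was left out (limma adjusted p up to 0.118).

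Atf2 (ENSMUSG00000027104, 73646853 to 73722983) encodes a leucine zipper transcription factor activated by stress kinases. It was at 23.7, 20.1 and 23.5 in wild type and 18.52, 19.4 and 18.9 in mutant males, and at 22.6, 22.3 and 24.4 in wild type and 14.1, 15.2 and 18.2 in mutant females. Mutant values were lower without overlap in each sex, by a narrow margin in males. Atf2 fell by 0.54 in females (limma adjusted p = 0.00271, SE 0.10) and 0.39 with the sexes combined (limma adjusted p = 0.00118, SE 0.07), with -0.23 in males (limma adjusted p = 0.109, SE 0.10). Chn1 (ENSMUSG00000056486, 73441004 to 73605690), the gene of the Rac-inactivating protein alpha-chimaerin, was at 14.9, 13.8 and 14.8 in wild type males, 10.7, 11.6 and 11.3 in mutant males, 10.9, 10.7 and 11.1 in wild type females and 8.83, 10.6 and 9.58 in mutant females. The genotypes were separated in males and just separated in females. Chn1 fell by 0.36 in males (limma adjusted p = 0.0089, SE 0.08) and 0.26 with the sexes combined (limma adjusted p = 0.00265, SE 0.05), with -0.17 in females (limma adjusted p = 0.119, SE 0.08).

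Between Ola1 and Chn1, Gpr155, a lysosomal cholesterol sensor, fell in males from 3.29 ± 0.159 to 2.10 ± 0.383 scaled FPKM (SD, n = 3 libraries), or -0.55 on the log2 scale (limma adjusted p = 0.0154, SE 0.13), and by 0.42 with the sexes combined (limma adjusted p = 0.00469, SE 0.09). Its female means were 1.42 ± 0.0631 in wild type and 1.08 ± 0.176 in mutants, without a call (-0.28, limma adjusted p = 0.133, SE 0.13). The call of Gpr155 in males was lost when wild type male 1 or mutant male 1 was left out (limma adjusted p up to 0.0653). Cir1, a corepressor of the Notch effector RBPJ, and Scrn3, whose loci overlap at their starts, were at 1.40 to 2.32 and 2.01 to 2.98 scaled FPKM over the libraries and were not called. Wipf1, a partner of the actin regulator WASP, had the largest positive value with the sexes combined on this side, 0.23 (limma adjusted p = 0.071, SE 0.09), and was not called. Chrna1, the alpha subunit of the muscle acetylcholine receptor, was at 3.58 ± 0.860 (wild type) and 2.49 ± 0.713 (mutant) in males and at 2.89 ± 0.490 and 2.55 ± 0.338 in females. It stood at -0.45 and -0.15 and was not called (limma adjusted p = 0.129 and 0.602). Of the 14 skeletal muscle markers 7 fell in males, and any part of muscle content in the values of Chrna1 was not tested. Its antisense neighbour Chrna1os was near the filter, between 0.401 and 1.18 scaled FPKM, and was not called.

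**Figure D3:**
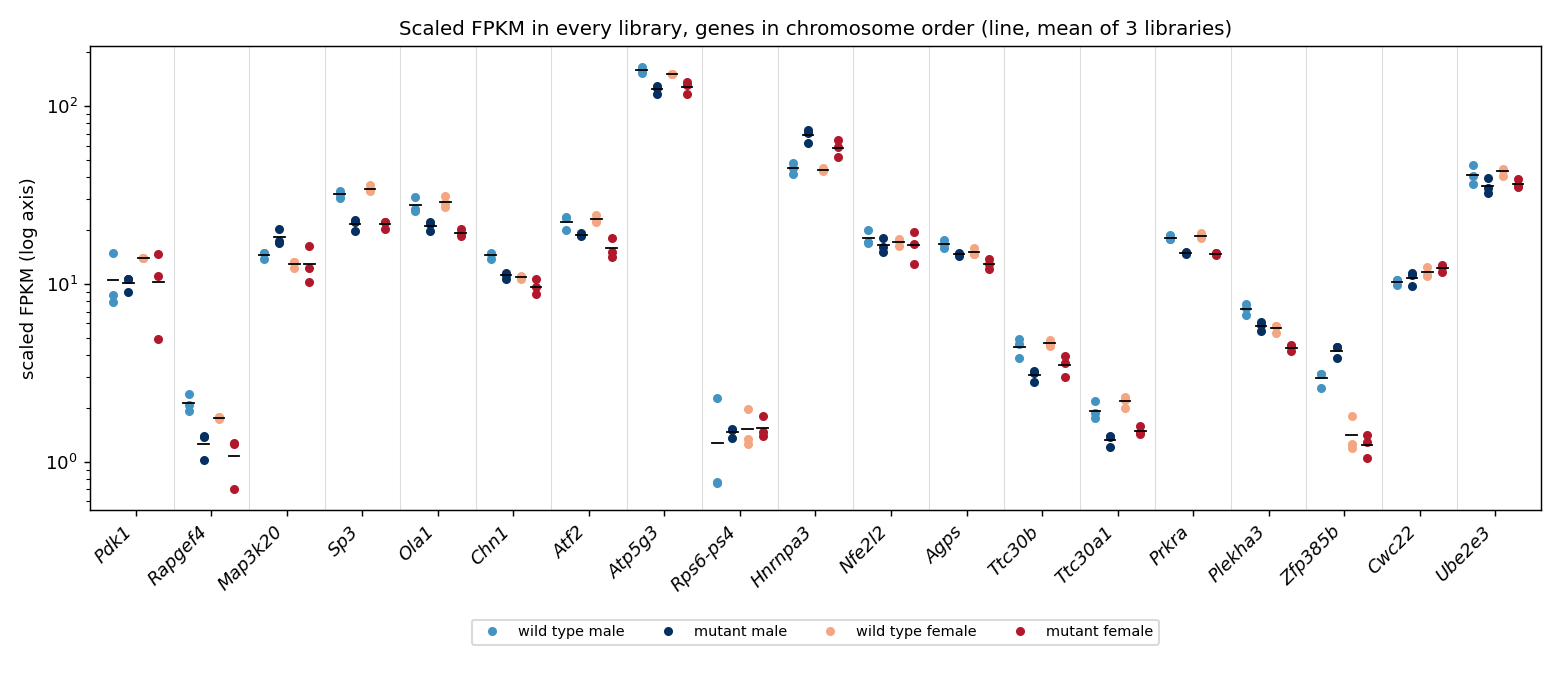
Scaled FPKM (log axis) of 19 tested genes in every library, in chromosome order from Pdk1 to Ube2e3, with a line at each group mean of 3 libraries. The mutant points lie below the wild type points of the same sex for Rapgef4, Sp3, Ola1, Chn1, Atf2, Atp5g3, Agps, Ttc30b, Ttc30a1, Prkra and Plekha3, and above them for Hnrnpa3.

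On the telomeric side the first protein-coding gene of the set, past a stretch that also holds the left-out Mtx2, moved the other way. Hnrnpa3 (ENSMUSG00000059005, 75489605 to 75499751), 894 kb from the Hoxd genes, encodes a nuclear protein that packages and helps transport messenger RNA. Its scaled FPKM were 47.6, 41.7 and 44.7 in wild type males and 62.0, 73.0 and 70.9 in mutant males, and at 43.8, 43.0 and 44.9 in wild type females and 51.5, 58.6 and 64.2 in mutant females. Every mutant library was above every wild type library. Hnrnpa3 rose by 0.61 in males (limma adjusted p = 0.00303, SE 0.09), 0.40 in females (limma adjusted p = 0.00922, SE 0.09) and 0.50 with the sexes combined (limma adjusted p = 2.17e-04, SE 0.06), the only gene of the 34 that rose in both. Among all tested genes 5.08% rose in both sexes and 8.7% fell in both, and among the 34 genes 1 rose in both and 9 fell in both. The rise was lost in each sex on FPKM as deposited, in females with libraries scaled to their FPKM sum and in males without the Rn7sk libraries, and processed copies of Hnrnpa3 elsewhere in the genome may share its reads.

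The promoter of Hnrnpa3 is shown in the same way beside those of Sp3 and Ola1, since this gene rose. It (chr2:75659009-75659308, plus strand) holds 3 GC boxes and 1 antioxidant core, and a box and the core overlap in 1 run of capitals. GC boxes thus stand in promoters of genes that fell and of the gene that rose, and Atp5g3, which fell, has 0 of them in its window.
Hnrnpa3: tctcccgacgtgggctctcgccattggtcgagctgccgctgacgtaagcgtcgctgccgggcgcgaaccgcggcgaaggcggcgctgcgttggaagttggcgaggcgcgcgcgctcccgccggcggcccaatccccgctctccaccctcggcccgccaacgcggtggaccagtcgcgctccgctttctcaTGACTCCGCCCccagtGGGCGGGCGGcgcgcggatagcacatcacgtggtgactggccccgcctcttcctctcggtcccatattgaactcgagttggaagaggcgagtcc

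Next to Hnrnpa3 lies Nfe2l2 (ENSMUSG00000015839, 75505857 to 75534985), which encodes NRF2, a main regulator of the antioxidant response. It was at 20.1, 17.3 and 16.9 in wild type males, 18.1, 15.2 and 16.2 in mutant males, 16.3, 17.9 and 17.4 in wild type females and 19.7, 16.8 and 13.0 in mutant females. The genotypes overlapped in both sexes. Its log2 fold changes were -0.13 and -0.08 (SE 0.13, limma adjusted p = 0.526 and 0.69). Agps (ENSMUSG00000042410, 75662521 to 75761694), a peroxisomal enzyme of ether lipid synthesis, was at 17.8, 16.7 and 15.8 and 14.3, 15.0 and 14.8 in wild type and mutant males and at 14.8, 15.9 and 14.8 and 12.1, 13.9 and 12.9 in females. Its mutant values were below the wild type values in each sex, though by little. Agps fell by 0.22 in females (limma adjusted p = 0.0387, SE 0.07) and 0.20 with the sexes combined (limma adjusted p = 0.00795, SE 0.05), with -0.19 in males (limma adjusted p = 0.0892, SE 0.07). The call of Agps in females was lost when wild type male 2, mutant male 1, mutant male 2, wild type female 1, wild type female 2, wild type female 3, mutant female 1 or mutant female 3 was left out (limma adjusted p up to 0.130).

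A pair of cilium genes follows. Ttc30b (ENSMUSG00000075273, 75766193 to 75768929) and Ttc30a1 (ENSMUSG00000075271, 75808591 to 75812311) encode close copies of a subunit of intraflagellar transport complex B, which carries cargo into cilia. Ttc30b was at 4.60, 3.83 and 4.88 in wild type and 2.83, 3.16 and 3.25 in mutant males and at 4.86, 4.58 and 4.47 in wild type and 3.01, 3.92 and 3.61 in mutant females. Ttc30a1 was at 1.87, 1.76 and 2.19 and 1.38, 1.21 and 1.40 in males and 2.33, 2.02 and 2.22 and 1.59, 1.48 and 1.43 in females. For both, mutant libraries were below wild type libraries in each sex without overlap. Ttc30b fell by 0.46 in males (limma adjusted p = 0.0177, SE 0.11), 0.36 in females (limma adjusted p = 0.0352, SE 0.11) and 0.41 with the sexes combined (limma adjusted p = 0.00218, SE 0.08). Ttc30a1 fell by 0.41 in males (limma adjusted p = 0.0247, SE 0.11), 0.43 in females (limma adjusted p = 0.0164, SE 0.11) and 0.42 with the sexes combined (limma adjusted p = 0.00173, SE 0.08). The call of Ttc30b in males was lost when wild type male 1, wild type male 3 or mutant male 1 was left out (limma adjusted p up to 0.0739). The call of Ttc30b in females was lost when wild type female 1, wild type female 2, wild type female 3, mutant female 1 or mutant female 3 was left out (limma adjusted p up to 0.114). The call of Ttc30a1 in males was lost when wild type male 1, wild type male 3, mutant male 1 or mutant male 2 was left out (limma adjusted p up to 0.0855). The call of Ttc30a1 in females was lost when wild type female 1 or wild type female 3 was left out (limma adjusted p up to 0.0679). Another copy, Ttc30a2, did not pass the filter, and reads of the copies may have been split between them by the authors' counting.

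Prkra (ENSMUSG00000002731, 76460242 to 76478359), which encodes PACT, an activator of the double-stranded RNA kinase PKR and a partner of Dicer, had the tightest values. It was at 17.8, 17.8 and 19.0 in wild type males, 14.7, 15.2 and 15.0 in mutant males, 18.2, 19.3 and 18.6 in wild type females and 14.9, 15.0 and 14.6 in mutant females. A clear gap lay between the genotypes in both sexes. Prkra fell by 0.27 in males (limma adjusted p = 0.0089, SE 0.06), 0.33 in females (limma adjusted p = 0.00245, SE 0.06) and 0.30 with the sexes combined (limma adjusted p = 2.77e-04, SE 0.04). Plekha3 (ENSMUSG00000002733, 76505625 to 76527172), the gene of the Golgi lipid-binding protein FAPP1, was at 7.37, 7.71 and 6.69 and 5.43, 5.87 and 6.14 in males and 5.28, 5.83 and 5.77 and 4.48, 4.18 and 4.51 in females. Here too each sex was split by genotype. Plekha3 fell by 0.30 in males (limma adjusted p = 0.0289, SE 0.08), 0.32 in females (limma adjusted p = 0.0149, SE 0.08) and 0.31 with the sexes combined (limma adjusted p = 0.00184, SE 0.06). The call of Plekha3 in males was lost when wild type male 1, wild type male 2, mutant male 1 or mutant male 2 was left out (limma adjusted p up to 0.116). The call of Plekha3 in females was lost when wild type female 2 or wild type female 3 was left out (limma adjusted p up to 0.0546).

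Between them Fkbp7, a protein-folding isomerase of the endoplasmic reticulum, fell in females from 25.6 ± 1.38 to 16.8 ± 3.08 scaled FPKM (SD, n = 3 libraries), by 0.61 (limma adjusted p = 0.00411, SE 0.12), with -0.30 in males (limma adjusted p = 0.0945, SE 0.12). Rbm45, an RNA-binding protein gene, fell in females from 15.3 ± 0.167 to 13.2 ± 0.184, by 0.21 (limma adjusted p = 0.0393, SE 0.07), with -0.11 in males (limma adjusted p = 0.283, SE 0.07). The call of Rbm45 in females was lost when wild type male 2, mutant male 2, wild type female 1, wild type female 2, wild type female 3, mutant female 1, mutant female 2 or mutant female 3 was left out (limma adjusted p up to 0.103). Pde11a, a phosphodiesterase that breaks down cAMP and cGMP, was at 1.05 ± 0.340 (wild type) and 1.92 ± 0.117 (mutant) in males and at 0.923 ± 0.418 and 0.866 ± 0.368 in females. Its male libraries separated by genotype with the mutants higher, but the difference did not pass (0.67, limma adjusted p = 0.0932, SE 0.26). Osbpl6, an oxysterol-binding protein gene, Ccdc141 and Sestd1 were not called in either sex, with values between -0.19 and 0.13 and limma adjusted p of 0.209 or more.

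At the far end of the window the genes gave mixed values. Zfp385b (ENSMUSG00000027016, 77240978 to 77647603), a zinc finger gene, was at 2.61, 3.12 and 3.11 in wild type and 3.85, 4.40 and 4.43 in mutant males and at 1.26, 1.82 and 1.19 in wild type and 1.41, 1.06 and 1.29 in mutant females. The male mutants lay above the male wild types, while the females overlapped at a lower level. Zfp385b rose in males by 0.46 (limma adjusted p = 0.0429, SE 0.14), with -0.12 in females (limma adjusted p = 0.542, SE 0.14). The call of Zfp385b in males was lost when wild type male 1, wild type male 2, wild type male 3, mutant male 1, mutant male 2, mutant male 3 or wild type female 1 was left out (limma adjusted p up to 0.159). It was also lost with a pseudocount of 0.1, without the filter, on FPKM as deposited, with libraries scaled to their FPKM sum and without the Rn7sk libraries. Cwc22 (ENSMUSG00000027014, 77711503 to 77776719), a splicing factor gene whose copy number differs between mouse strains, was at 10.5, 10.5 and 9.88 and 11.5, 11.2 and 9.70 in males and 11.3, 12.4 and 11.1 and 12.5, 12.9 and 11.7 in females. The groups overlapped, with 0.06 and 0.09 (limma adjusted p = 0.618 and 0.446).

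Ube2e3 (ENSMUSG00000027011, 78698468 to 78751637), a ubiquitin-conjugating enzyme gene and the last tested gene with a symbol, was at 40.6, 36.4 and 46.4 in wild type males, 34.8, 39.3 and 32.4 in mutant males, 43.7, 40.6 and 44.5 in wild type females and 36.0, 35.2 and 38.9 in mutant females. Its male genotypes overlapped and its female genotypes did not. Ube2e3 fell with the sexes combined by 0.21 (limma adjusted p = 0.0279, SE 0.07), and stood at -0.21 in males and -0.22 in females (limma adjusted p = 0.155 and 0.109). The call of Ube2e3 in the sexes combined was lost when wild type male 1, wild type male 3, mutant male 1, mutant male 3, wild type female 1, wild type female 3 or mutant female 2 was left out (limma adjusted p up to 0.0623). The unnamed gene model ENSMUSG00000121134 (78753816 to 78755908), just past Ube2e3 and named after its values were seen, fell most of the 34. It was at 2.85, 2.52 and 3.45 in wild type males, 1.51, 1.32 and 2.11 in mutant males, 2.23, 2.22 and 3.28 in wild type females and 0.787, 0.739 and 1.25 in mutant females, with no overlap in either sex. The model fell by 0.69 in males (limma adjusted p = 0.0312, SE 0.20), 1.11 in females (limma adjusted p = 0.00259, SE 0.20) and 0.90 with the sexes combined (limma adjusted p = 5.59e-04, SE 0.14). Lacking a known transcript, the model was left out of the GC and length correction given below, so its fall has no corrected value.

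The mutant effect was next compared between the sexes. Across the 34 genes the male and female log2 fold changes had a Pearson correlation of 0.69 (Spearman 0.74), and across all 13904 genes 0.62, as a description over genes, which are not independent. The difference of the effects passed the test for 0 of the 34 genes, with a smallest limma adjusted p of 0.545 (Zfp385b), and for 0% of all genes. At an unadjusted p under 0.05 the difference held for 2 of the 34 genes and 1225 of all genes. Calls in 1 sex and not in the other, as for Gpr155, Chn1, Atf2, Fkbp7 and Zfp385b, are therefore not shown to differ between the sexes.

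Levels differed between the sexes for a few of the genes, whatever the genotype effect. In wild type 3 of the 34 genes were higher and 1 lower in males, against 3.18% of all genes called (1.95% higher and 1.23% lower). In mutants 3 were higher and 1 lower, against 7.49% (3.98% higher and 3.52% lower). Zfp385b was higher in males by 0.85 in wild type (limma adjusted p = 0.00837, SE 0.14) and by 1.43 in mutants (limma adjusted p = 2.31e-04, SE 0.14). Gpr155 was higher in males by 0.98 in wild type (limma adjusted p = 0.00259, SE 0.13) and 0.71 in mutants (limma adjusted p = 0.0106, SE 0.13). Cdca7, at 21.3, 21.5 and 24.6 in wild type and 25.6, 26.5 and 22.7 in mutant males and at 32.3, 31.4 and 30.7 and 31.9, 30.9 and 31.5 in the females, had male minus female differences of -0.48 and -0.33 (limma adjusted p = 0.00646, SE 0.08 in wild type and 0.0267 in mutants). Every male library was below every female library for Cdca7 and above every female library for Gpr155 and Zfp385b. Chn1 was called in wild type only, at 0.39 (limma adjusted p = 0.0172, SE 0.08) against 0.20 in mutants (limma adjusted p = 0.131, SE 0.08), and Plekha3 in mutants only, at 0.37 (limma adjusted p = 0.0251, SE 0.08) against 0.34 in wild type (limma adjusted p = 0.0524, SE 0.08). The genotype difference of these sex differences is the one tested above, with 0 calls. The female samples also held vagina, so the sex and the tissue taken cannot be told apart.

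**Figure D4:**
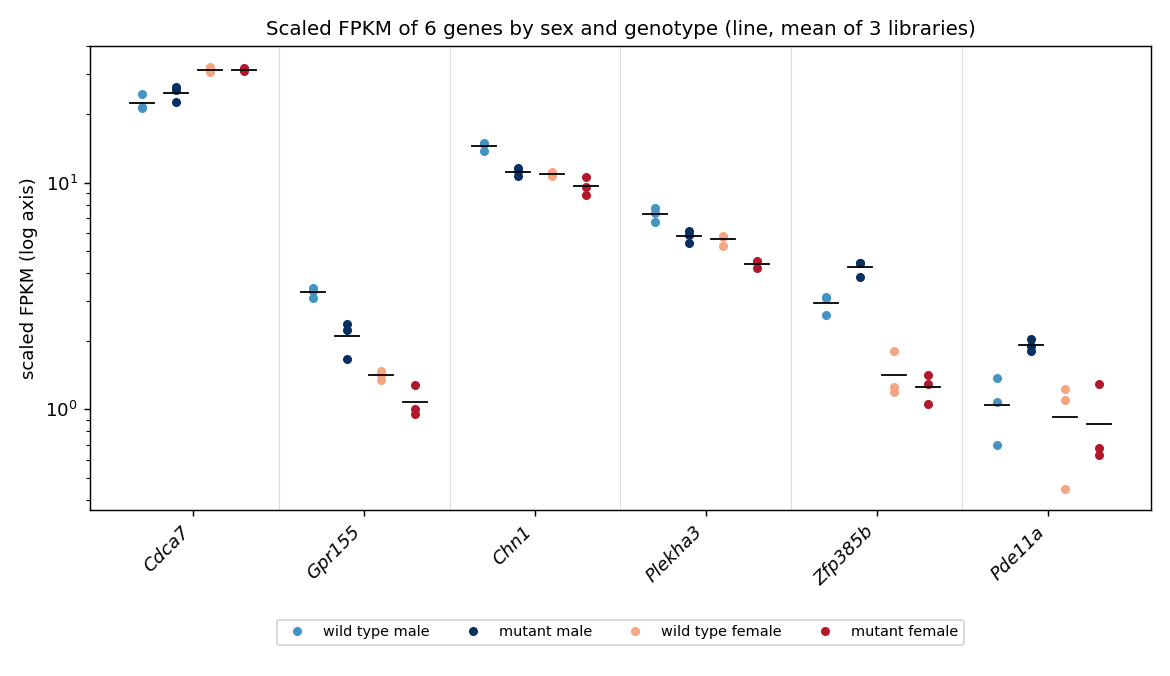
Scaled FPKM (log axis) of 6 genes by sex and genotype, 3 libraries per group with a line at the mean. The male points of Gpr155 and Zfp385b lie above all female points and those of Cdca7 below them.

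The genotype change followed the base composition of transcripts across the whole table, which bears on these genes. Across 13735 genes with a known transcript the log2 fold change rose with transcript GC content, with a Pearson correlation of 0.52 in males, 0.59 in females and 0.61 with the sexes combined, as a description. The median transcript GC was 45.3% for the 34 genes, against 49.9% for all tested genes, 43.5% and 47.9% in the stretches before and after the window, and 51% in the rest of chromosome 2. Across the 33 flanking genes with a known transcript the correlation was 0.21, 0.11 and 0.18. When GC content and length were fitted out of each library, 0 of the 33 fell and 2 rose in males (Hnrnpa3 and Zfp385b), 0 fell and 3 rose in females (Hnrnpa3, Sp3os and Cwc22), and 5 fell and 4 rose with the sexes combined. The same correction left 1.91% of all genes lower and 1.75% higher (3.66% in all) in males, 3.59% and 4.25% (7.84%) in females, and 8.55% and 8.82% (17.4%) with the sexes combined. The side medians moved to 0.08, -0.02 and -0.06 on the centromeric side and 0.03, -0.01 and 0.05 on the telomeric side.

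Under that correction the genes called lower with the sexes combined were Rapgef4 (-0.43, limma adjusted p = 0.0265), Atp5g3 (-0.23, limma adjusted p = 0.00689), Sp3 (-0.18, limma adjusted p = 0.0263), Chn1 (-0.17, limma adjusted p = 0.042) and Prkra (-0.16, limma adjusted p = 0.0255). Other genes also had negative values without a call, among them Ttc30b (-0.25, limma adjusted p = 0.0591). Hnrnpa3, whose transcript has a GC content of 39.9%, stood at 0.95 in males, 0.87 in females and 0.91 with the sexes combined (limma adjusted p = 8.93e-04, 0.00139 and 3.69e-05). It was higher in the mutant with and without the correction. The other genes called higher with the sexes combined after correction were Sp3os (0.72, limma adjusted p = 0.0145), Cir1 (0.34, limma adjusted p = 0.0299) and Cwc22 (0.29, limma adjusted p = 0.00897), which had not been called before it. Atf2 went from -0.39 to 0.01 and Agps from -0.20 to 0.08 with the sexes combined, and neither was called after it (limma adjusted p = 0.942 and 0.393).

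**Figure D5:**
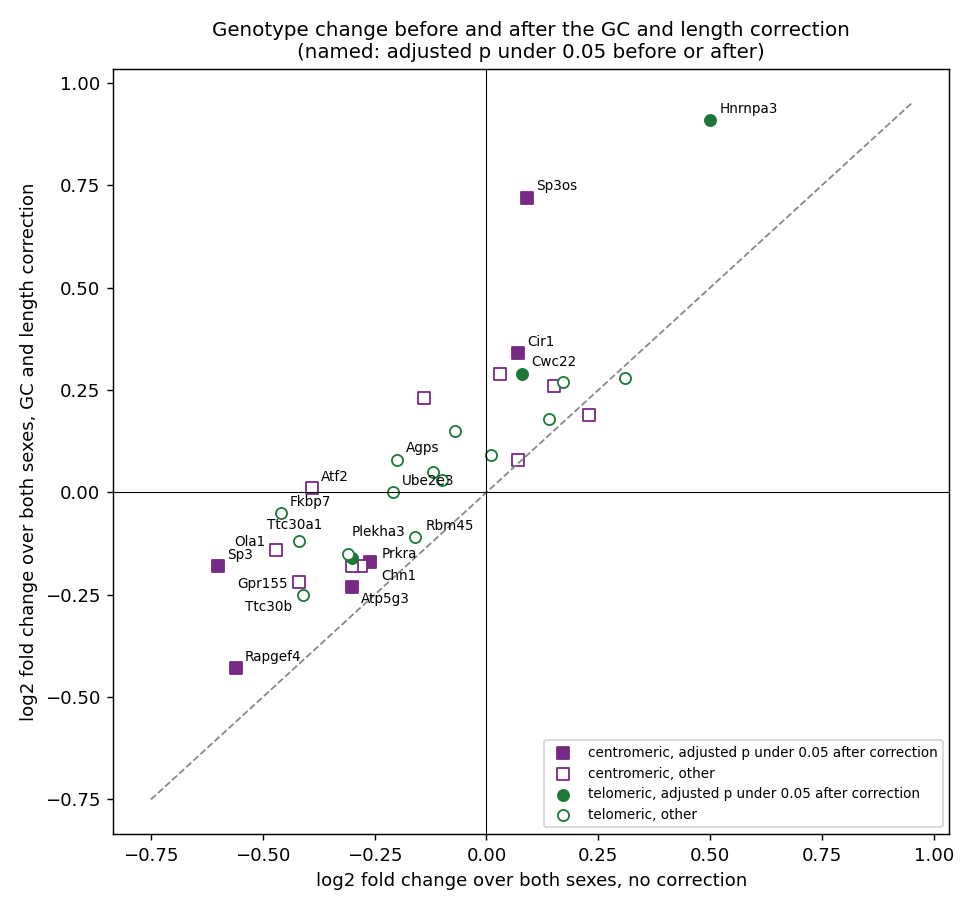
Log2 fold change with the sexes combined before (x axis) and after (y axis) the GC and length correction for 33 tested genes, centromeric as squares and telomeric as circles, filled where the limma adjusted p is under 0.05 after correction. All points but those of Wipf1 and Pde11a lie above the dashed line of equal values, and Hnrnpa3 has the highest value on both axes.

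The 3 libraries that hold Rn7sk include 2 of the 3 mutant males. Without them 0 of the 34 genes were called in males, where 0.452% of all genes were and 8 of the 34 had an unadjusted limma p under 0.05, with the lone mutant male assumed to vary like the other groups. In females 9 of the 34 were called without them and with the sexes combined 11, of which 10 were lower, against 20.1% and 20% of all genes. Leaving out single libraries gave 5 to 15 calls in males, 7 to 15 in females and 16 to 19 with the sexes combined. With the sexes combined the calls of Sp3, Rapgef4, Atp5g3, Prkra and Hnrnpa3 held in each alternative tried in which the gene was tested, among them the removal of those libraries and the GC correction.

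Several of the genes belong to families or complexes encoded elsewhere, which were read as lists in the same fit, the flanking genes included, with the sexes combined unless a sex is named. The shares of all tested genes to read their counts against are the 21.6% lower and 18.9% higher given above. The lists were not read under the GC and length correction, after which 8.55% of all genes were lower and 8.82% higher. Sp3 was the only lower gene of the 7 tested Sp factors, and 2 were higher. Those were Sp2 (0.71, SE 0.10, limma adjusted p = 3.73e-04) and Sp8 (0.39, SE 0.13, limma adjusted p = 0.0295), while Sp1, the closest relative of Sp3 in its binding, stood at 0.06 (limma adjusted p = 0.657). In each single sex also 1 Sp factor, Sp3, was lower and 2 were higher. Of 11 tested ATF and CREB factors Atf2 alone was lower and 0 were higher with the sexes combined, and in females Atf1 (0.66, SE 0.14, limma adjusted p = 0.00558) and Atf5 (0.42, SE 0.14, limma adjusted p = 0.0449) were higher. The medians of both lists, 0.34 and 0.03, stood beside 0.00 for all tested genes.

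Subunits of ATP synthase and of intraflagellar transport complex B gave calls in both directions with the sexes combined. Of 14 tested ATP synthase genes (of 16 on the list, 15 found) 4 were lower with the sexes combined and 2 higher, with a median of -0.08. With Atp5g3 the lower ones were Atp5c1 (-0.33, SE 0.06, limma adjusted p = 0.0014), Atp5pb (-0.52, SE 0.06, limma adjusted p = 1.68e-04) and Atp5j2 (-0.79, SE 0.05, limma adjusted p = 2.16e-05). The other genes of subunit c went otherwise, with Atp5g2 higher (0.53, SE 0.06, limma adjusted p = 1.33e-04) and Atp5g1 at 0.13 (limma adjusted p = 0.116). Of 17 tested genes of transport complex B 7 were lower with the sexes combined and 1 higher, with a median of -0.12. Of the 7 lower genes 2 are Ttc30a1 and Ttc30b. The list holds 25 names for 18 genes, as some are listed under 2 names, and all 18 were found. The largest fall of that list was that of Ift74 (-0.64, SE 0.08, limma adjusted p = 1.78e-04). In males 5 of the 17 were lower and 0 higher (11.6% and 8.64% of all genes), and in females 7 and 0 (15.9% and 12.1%).

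Target and signalling lists moved little. Of 15 tested targets of NRF2, the product of Nfe2l2, 1 was lower in males, 1 in females and 2 with the sexes combined, and 0 were higher, with a median of 0.05 with the sexes combined. They were the peroxidase gene Prdx1 (-0.65, SE 0.08, limma adjusted p = 1.51e-04) and, with the sexes combined only, the malic enzyme gene Me1 (-0.44, SE 0.13, limma adjusted p = 0.0169). Of 13 tested cAMP enzymes and exchange factors, Rapgef4 and Pde7a fell and Pde4d rose with the sexes combined, with a median of 0.01. Of the 4 tested subunits of the muscle acetylcholine receptor 0 were called, with medians of -0.26 in males and -0.02 in females. Chrnb1, Chrnd and Chrng of that list are also among the skeletal muscle markers given above, so the lists are not independent.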

How the data were processed

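RNA-seq libraries of 12 urogenital sinus samples were made with ribosomal RNA depletion and strand-specific single-end reads, per the labels' protocols. The deposited values are FPKM per gene, made by the authors with Cufflinks 2.2.1, STAR 2.7.10a, bedtools 2.30.0 and cutadapt 4.1, with mm39 and mm10 as builds, per the submitters' processing notes. Annotation, strand setting and what each build was used for are not given in the sources used here. Coordinates were taken as mm39, since 2.74% of the genes share chromosome and end with a GRCm38 annotation, and starts were raised by 1. The table holds 0 columns of other samples, and it lists 36 mitochondrial genes at 0 in all libraries.

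FPKM were divided per library by a factor (0.748 to 1.131) that sets the median ratio to 1 over the 11897 genes that reach 1 FPKM in every library. A gene was tested where 3 or more libraries reached 1 FPKM, and log2(scaled FPKM + 0.5) of all 4 groups was fitted with limma 3.58.1 in R 4.3.3 with a trend, Benjamini-Hochberg adjusted over 13904 genes. The fit was checked on simulated data. FPKM hold no counts, so a count test was not used. FPKM sums were 276713 to 401093, and relative depth was read from the step of 1 read in values under 0.05 FPKM. The GC and length correction removed a natural spline of 5 degrees of freedom for each from every library. Tables and plots were made in Python 3.11.15 with pandas 2.3.3, numpy 2.4.6, scipy 1.17.1 and matplotlib 3.10.9.

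Genes, lists and tests were chosen with earlier results of these data known. Every library's value was given for genes called in both sexes and for the 3 tested genes with a symbol nearest to each side of the Hoxd genes and to each end of the window. Others are given by means, fold changes or ranges, and genes under the filter by counts. Same-numbered libraries did not deviate together, so no pairing was used. Alternatives were other pseudocounts, filters and scalings, fits of only the groups compared, a replicate block, the GC correction and libraries left out. The removal of the 3 Rn7sk libraries was chosen after seeing the data. The urogenital sinus marker list is not reported here.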

Additional observations from a re-analysis of the deposited data

How the results depend on the processing

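The 13 genes called in males became 7 with a filter of 5 FPKM, 6 on FPKM as deposited, 2 after the GC and length correction, 1 with a replicate block and that correction, and 0 without the 3 Rn7sk libraries. The 14 called in females became 9 without a filter, 6 on FPKM as deposited, 7 with only the 2 groups compared, 3 after the correction, 3 with the block and the correction, and 9 without the Rn7sk libraries. The 17 called with the sexes combined became 9, 8 and 11 under the last 3 settings. Leaving out 1 library gave 5 to 15 calls in males (6 without wild type male 1, 5 without mutant male 1 and 8 without mutant male 2). In females it gave 7 to 15 (8 without wild type female 1 or 2, 7 without wild type female 3 and 9 without mutant female 3), and with the sexes combined 16 to 19.

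The 4 calls between the sexes in mutants became 2 with a filter of 5 FPKM, 2 on FPKM as deposited, 13 with libraries scaled to the FPKM sum (0 lower and 13 higher, against 1 and 3), 1 with only the 2 groups and 1 without the Rn7sk libraries, and ranged from 2 (without mutant male 3) to 7 (without mutant female 2). The 4 in wild type became 2, 2 and 1 with that filter, as deposited and without the Rn7sk libraries, and ranged from 2 (without wild type male 2 or wild type female 1) to 5. The difference of the effects between the sexes gave 0 calls in each of these settings.

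Side medians are given for no filter, FPKM as deposited, scaling to the FPKM sum, the GC and length correction, and the replicate block with that correction. On the centromeric side they were -0.03, -0.39, -0.43, -0.06 and -0.06 with the sexes combined, -0.02, -0.31, -0.42, -0.02 and -0.02 in females, and -0.03, -0.32, -0.28, 0.08 and 0.08 in males. A filter of 5 FPKM gave -0.39 there in females and -0.30 in males, and removal of the Rn7sk libraries -0.21 with the sexes combined. On the telomeric side they were -0.06, -0.26, -0.30, 0.05 and 0.05 with the sexes combined, -0.09, -0.29, -0.43, -0.01 and -0.01 in females, and -0.03, -0.27, -0.22, 0.03 and 0.03 in males. Leaving out 1 library gave -0.30 to -0.18, -0.25 to -0.11 and -0.28 to -0.16 on the centromeric side (combined, females, males; the -0.18 and -0.11 are without mutant female 1) and -0.18 to -0.12, -0.23 to -0.17 and -0.16 to -0.09 on the telomeric side. The median of all genes lay at -0.14, -0.08 and -0.11 (males, females, combined) on FPKM as deposited, and at -0.09, -0.21 and -0.15 with scaling to the FPKM sum. Atf2 turned to 0.01 with the sexes combined and Agps to 0.08 with the sexes combined and 0.14 in females, under the correction with and without the block.

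The libraries share numbers between groups, and the numbers did not pair them: same-numbered libraries correlated at -0.226 to 0.317 over 18 pairs (median 0.0112, other pairs -0.0123), and 3 of 12 libraries correlated best with their own number. The replicate block alone gave 13 calls in males, 11 in females, 18 with the sexes combined, 5 between sexes in mutants and 4 in wild type. Under it the calls of Zfp385b in males and of Rapgef4, Atp5g3 and Rbm45 in females were lost (limma adjusted p = 0.0576, 0.0505, 0.0525 and 0.0558), and those of Fkbp7 in males and Wipf1 with the sexes combined were gained (0.0476 and 0.0431). It left the side medians at -0.20, -0.21 and -0.27 (centromeric, in males, females and both) and -0.12, -0.20 and -0.14 (telomeric). Over single genes and settings, 1970 values kept their side of the threshold, 191 lost the threshold, 35 gained it and 6 values of called results changed direction. Changes of direction without a call were not counted apart and stand among the 1970. An example is Atf2 in males, at -0.23 without and 0.11 with the GC and length correction. The cause of these shifts was not tested, apart from the fewer genes or libraries that some settings hold. Without read counts, what depth limits in the low genes is not known.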
